A study of Mus musculus with 4 samples.

Results

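The Homer scaffold genes Homer1, Homer2 and Homer3 were measured on 4 Affymetrix arrays of mouse hippocampal RNA by 10 probesets, each kept apart, out of 45037 probesets in all. A probeset was included when the platform annotation gave 1 of these 3 symbols as its single gene, which gave 6 probesets of Homer1, 3 of Homer2 and 1 of Homer3. The 2 fluoxetine arrays held RNA of male inbred DBA/2J mice that drank water with fluoxetine, an antidepressant that blocks serotonin reuptake, at 18 mg/kg per day for 21 days. The 2 control arrays held RNA of male DBA/2J mice that drank untreated water, a dose of 0 mg/kg per day. The labels give an age of 8 to 10 weeks for all groups, and each array is 1 pool of bilateral hippocampi from 6 mice, with 12 mice per group. Spread between arrays is therefore spread between pools, and single mice are not seen.

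Homer proteins are postsynaptic adapters. Their N-terminal EVH1 domain binds proline-rich stretches in group I metabotropic glutamate receptors, Shank scaffolds, inositol trisphosphate receptors and ryanodine receptors. The long forms also carry a C-terminal coiled coil through which they join into multimers and link these partners to each other. Homer1 in addition gives rise to short forms, Homer1a and Ania-3, that end early, lack the coiled coil, are induced as immediate early transcripts by neuronal activity and compete with the long forms for partners. Homer2 and Homer3 are made mainly as long forms, and Homer3 is best known from cerebellar Purkinje cells. The annotation used here names the gene of a probeset but does not place its probes on exons, so no probeset was assigned to a short or a long form.

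On the assembly GRCm38.p6, RefSeq places Homer1 on chromosome 13 from 93303757 to 93405129 with 5 curated transcripts, Homer2 on chromosome 7 from 81600481 to 81706925 with 3, and Homer3 on chromosome 8 from 70282880 to 70294361 with 2. Among the Homer probesets the largest difference between the groups was at 1 of Homer1, and the tested probesets of Homer2 had log2 fold changes below 0. The sequences around the upstream starts of Homer1 and Homer2 are shown 5′ to 3′ from RefSeq for 250 bases before and 50 bases after the start. They are chr13:93303507-93303806 on the plus strand and chr7:81706876-81707175 on the minus strand. Capitals mark TGACG, the core of the cyclic AMP response element bound by CREB family factors, searched on both strands.
Homer1: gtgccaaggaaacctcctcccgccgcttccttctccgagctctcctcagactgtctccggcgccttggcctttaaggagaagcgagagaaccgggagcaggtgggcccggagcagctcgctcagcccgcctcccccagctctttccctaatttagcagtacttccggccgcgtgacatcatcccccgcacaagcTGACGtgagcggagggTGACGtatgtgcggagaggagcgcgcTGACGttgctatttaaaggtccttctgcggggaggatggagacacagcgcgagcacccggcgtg
Homer2: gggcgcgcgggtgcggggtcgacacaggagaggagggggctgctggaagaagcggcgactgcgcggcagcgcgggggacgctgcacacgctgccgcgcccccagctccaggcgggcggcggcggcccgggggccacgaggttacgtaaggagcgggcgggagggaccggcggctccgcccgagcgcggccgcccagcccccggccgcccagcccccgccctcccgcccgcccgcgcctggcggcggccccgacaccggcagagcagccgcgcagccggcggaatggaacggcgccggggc
The Homer1 sequence held 3 matches, all on the gene's strand and not overlapping, beginning 56, 40 and 14 bases before the start and reading on to TGACGTGA, TGACGTAT and TGACGTTG. The complete palindrome TGACGTCA, which holds TGACG on both strands, was not among these letters. Of 32851 such windows in the RefSeq table, 20.8% held at least 1 TGACG, 1.03% held at least 3 and 1.79% held TGACGTCA. The windows of Homer2 and Homer3 and the downstream window of Homer1 held 0 matches. A match is a description of the letters, and binding was not measured here.

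The deposited values are intensities on a linear scale after the authors' GCRMA normalization, and the submitters took 100 as the lowest intensity above background. Between 16612 and 16866 probesets per array reached it, and 16938 probesets that did so in at least 2 of the 4 arrays were tested with limma. In all, 291 of these, or 1.72%, passed a Benjamini-Hochberg adjusted p of 0.05. The 18 probesets of hybridisation spike-ins, RNA spiked into every sample, all stood above both control arrays in both fluoxetine arrays, by a median log2 of 0.36, and their part in the values below was not tested. The 4 pan-neuronal markers were tested with 0 calls by limma and 0 at an unadjusted p under 0.05, and of the markers of neighbouring regions, all 3 annotated striatal genes (Drd2, Gpr6 and Rgs9), thalamic Tcf7l2 and cerebellar Gabra6 and Pcp2 were under 100 in every array. The other members were not: thalamic Prkcd was at 174 and 135 in fluoxetine and 119 and 91.5 in control pools, thalamic Rora at 628 and 594 in fluoxetine and 619 and 593 in control pools, and cerebellar Car8 at 165 and 134 in fluoxetine and 84.8 and 91.2 in control pools. Prkcd and Car8 did not pass the adjusted test, their groups did not overlap, and their part in the values below was not tested. Transcripts of the choroid plexus differed between pools of the same group. The summed level of 4 markers was 51264 and 4476 in fluoxetine pools 1 and 2, and 38005 and 2070 in control pools 1 and 2. Nearly all of this sum was Ttr, at 51101 and 4429 in fluoxetine and 37856 and 2002 in control pools. Kl was at 120 and 31.7 in fluoxetine and 120 and 49.0 in control pools, and Folr1 and Kcne2 were under 100 in every array.

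Of the 10 Homer probesets, 8 were bright enough to be tested, 5 of Homer1, 2 of Homer2 and 1 of Homer3. The 3 genes were selected on known fluoxetine-over-control values of Homer1, namely the large rise at 1 of its probesets, so the values are given as a description and without p-values. By the test over all probesets, 1 of the 8 counted as higher and 0 as lower, against 1.03% higher and 0.685% lower of all tested probesets, and 1 was higher and 2 were lower at an unadjusted p under 0.05, against 8.64% higher and 13.9% lower of all tested probesets. The groups did not overlap at 4 of the 8, 2 higher and 2 lower, against 56% of all tested probesets, 21.9% higher and 34.2% lower.

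**Figure D1:**
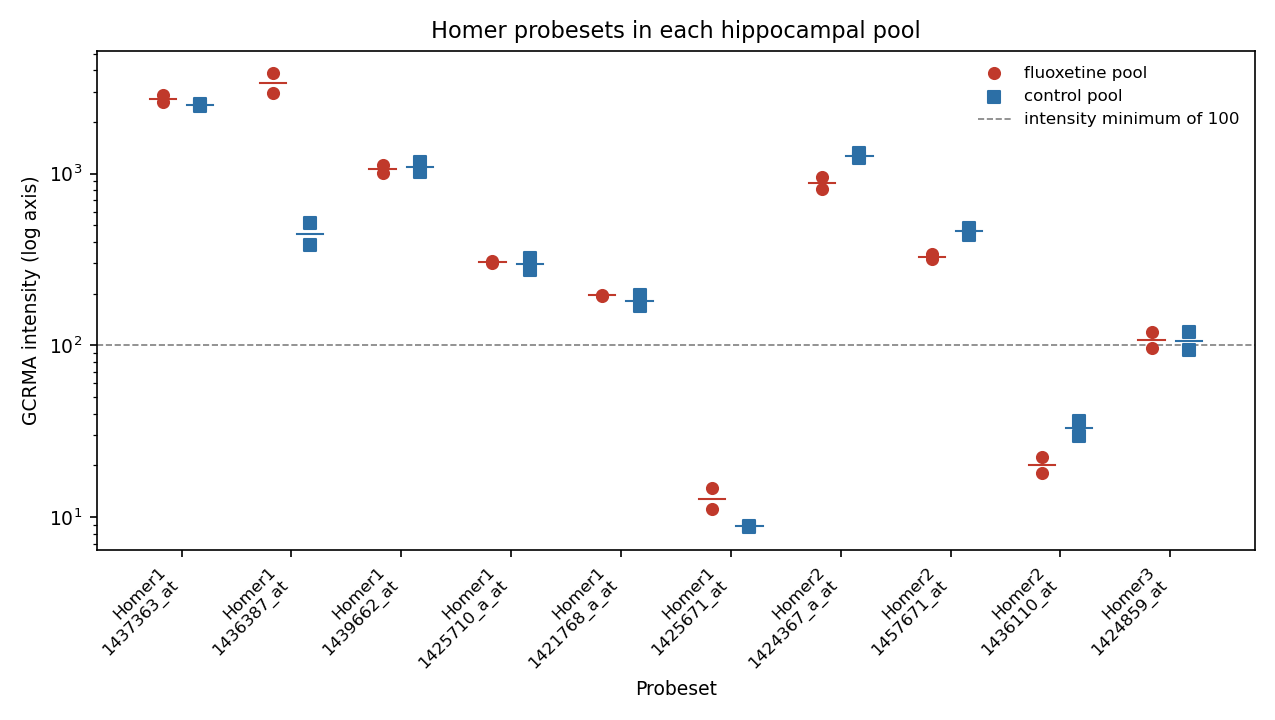
GCRMA intensity on a log axis (vertical) of the 10 Homer probesets (horizontal) in each pool, with circles for fluoxetine pools, squares for control pools and short lines for geometric means. Probeset 1436387_at of Homer1 lies at 2965 and 3830 in fluoxetine pools, far above 516 and 385 in control pools, while the other bright Homer1 probesets lie close together and the Homer2 probesets are lower in both fluoxetine pools.

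A single Homer1 probeset carried the largest difference of the family. Probeset 1436387_at was at 2965 and 3830 in the fluoxetine pools, against 516 and 385 in the control pools. Both fluoxetine pools lay several times above both control pools, and the lowest of the 4 pool-by-pool ratios was 5.75 and the highest 9.95. The geometric means were 3370 in fluoxetine and 446 in control pools. Fluoxetine thus exceeded control by log2 2.92 ± 0.19, or 7.56-fold (n = 2 pools in each group). The error is the limma standard error, whose variance is drawn toward that of all tested probesets. The log2 fold change was rank 3 among those of the 16938 tested probesets. Within the groups, pool 1 and pool 2 differed by log2 -0.37 in fluoxetine and 0.42 in control pools, more than the SD of such differences over all tested probesets (0.198 in fluoxetine and 0.189 in control pools). The difference between groups was thus several times that between pools of a group. With any 1 array left out it lay between log2 2.71 and 3.13, but the test over all probesets then made 0 calls, this probeset included. In bulk RNA, more cells that hold a transcript and more transcript per cell cannot be told apart.

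The other tested Homer1 probesets did not share this difference. Probeset 1437363_at was at 2610 and 2855 in fluoxetine and 2547 and 2463 in control pools, a log2 fold change of 0.12 ± 0.08. Its groups did not overlap, but the distance between them was smaller than that between the fluoxetine pools. Probeset 1439662_at was at 1123 and 1010 in fluoxetine and 1171 and 1020 in control pools (log2 -0.04 ± 0.10). Probeset 1425710_a_at was at 302 and 308 in fluoxetine and 321 and 276 in control pools (log2 0.04 ± 0.10). Both had groups that overlapped, and the sign turned for 1439662_at without fluoxetine pool 2 or control pool 1 and for 1425710_a_at without control pool 2. Probeset 1421768_a_at, the only Homer1 probeset whose design record is itself among the RefSeq transcripts listed for the gene, was at 195 and 196 in fluoxetine and 195 and 169 in control pools (log2 0.11 ± 0.09). Here control pool 1 lay between the fluoxetine pools. In Affymetrix naming the ending _a_at marks probesets that match alternative transcripts of a gene, so both probesets with that ending may read several Homer1 forms. The remaining Homer1 probeset, 1425671_at, was at 11.1 and 14.7 in fluoxetine and 8.73 and 8.93 in control pools, all under the minimum of 100, and was not tested.

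**Figure D2:**
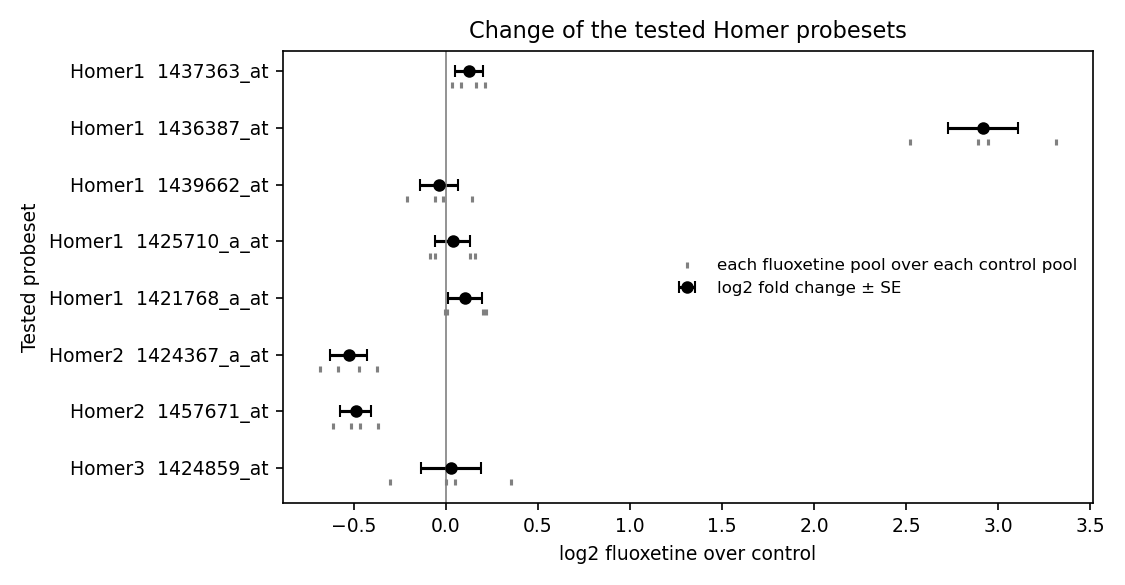
Log2 fold change of fluoxetine over control (horizontal) for the 8 tested Homer probesets (vertical), with points for the fitted value, bars for its limma standard error (n = 2 pools per group) and ticks for each fluoxetine pool over each control pool. Probeset 1436387_at stands at 2.92 while the other 4 of Homer1 lie between -0.04 and 0.12, and both Homer2 probesets lie below 0.

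Within each array, 1436387_at was set against the median of the other 4 tested Homer1 probesets of that array, a ratio that removes any shift shared by the array. On the log2 scale this ratio was 2.35 and 2.78 in the fluoxetine pools and -0.25 and -0.46 in the control pools, a difference of 2.92. It lay between 2.70 and 3.14 with any 1 array left out. The ratio compares probes of different sequence, so only its change between arrays can be read, not its level.

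Such a split among the probesets of a gene was set against the rest of the array. Of 3748 genes with at least 2 tested probesets, Homer1 had the widest range of log2 fold changes, 2.96 between its highest and its lowest probeset. The median range was 0.13, the 99th percentile was 0.64, and Homer1 was the only gene above 1. The next gene, named after its values were seen, was Ndufab1, a mitochondrial acyl carrier protein gene, with a range of 0.98 over 3 probesets. Among the 132 genes with 5 tested probesets, as Homer1 has, the median range was 0.25 and the highest after Homer1 was 0.89, for Arpp21. Of the 3748 genes, 93 had at least 1 probeset called by limma, and 24 of these had all of theirs called. Homer1 is described here by the values that led to its choice, so its place in this order is no test.

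**Figure D3:**
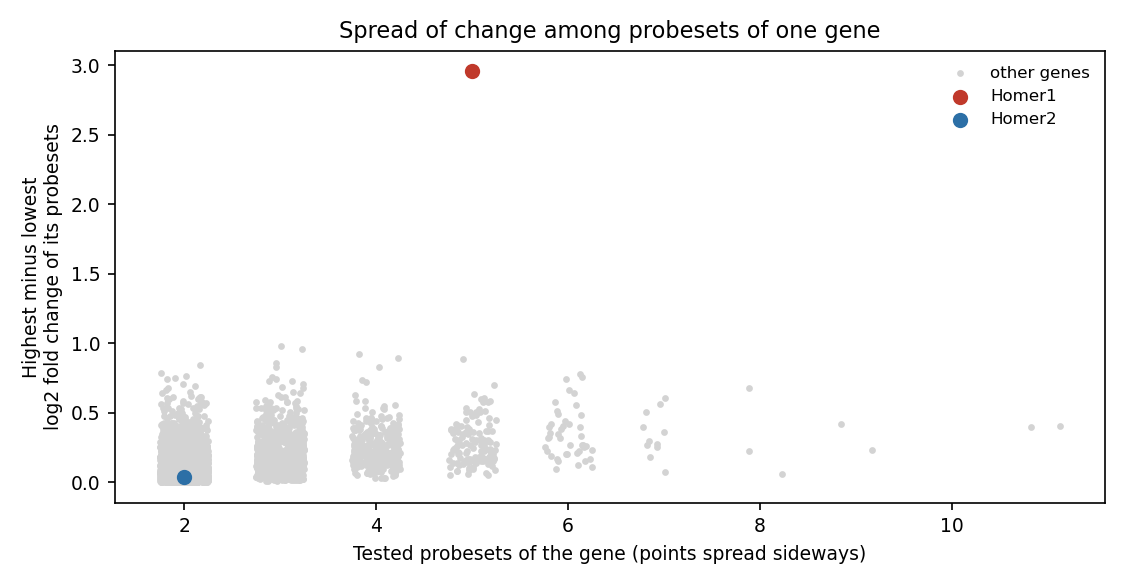
Highest minus lowest log2 fold change among the tested probesets of a gene (vertical) by the number of its tested probesets (horizontal, points spread sideways) for 3748 genes. Homer1 stands alone at 2.96, and Homer2, with 0.04, lies among the narrowest.

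Homer2 lay the other way at all of its probesets. Probeset 1424367_a_at was at 949 and 818 in the fluoxetine pools, against 1316 and 1229 in the control pools, a log2 fold change of -0.53 ± 0.10. Probeset 1457671_at was at 339 and 317 in fluoxetine and 485 and 439 in control pools, a log2 fold change of -0.49 ± 0.09. In both, each fluoxetine pool lay below each control pool, and the values differed by only 0.04 on the log2 scale between the probesets. Larger falls were seen at 1.98% of all tested probesets for the one and 2.63% for the other. Neither counted as changed by the test over all probesets, and neither reached the submitters' 2-fold rule. Of the 8 Homer probesets 1 reached it, 1436387_at of Homer1, against 0.791% of all tested probesets. The third probeset, 1436110_at, was at 22.2 and 18.2 in fluoxetine and 36.2 and 29.8 in control pools, the same order but all under 100, so no fold is given. With any 1 array left out the log2 values lay between -0.64 and -0.42 for 1424367_a_at and between -0.56 and -0.42 for 1457671_at.

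The summed levels of neuronal field markers were lower in the fluoxetine pools, as Homer2 was, but their members went both ways. The summed level of the 4 dentate granule cell markers was 4342 and 4645 in fluoxetine and 6570 and 5817 in control pools, a sum to which Calb1 contributes most. By limma at the brightest probeset, 0 of these 4 genes were called higher and 1 lower, Dsp, against 1.31% and 0.554% of all tested genes. At an unadjusted p under 0.05, 1 was higher and 2 were lower, against 9.37% and 12.7%. Calb1 stood at log2 -0.45 ± 0.08 at its brightest probeset, and 1 of its 3 tested probesets was called lower. C1ql2, at 1.11 ± 0.17 (limma adjusted p = 0.0636), and Prox1, at 0.17 ± 0.26, lay above 0. The summed level of the 4 CA pyramidal neuron markers was 8564 and 8056 in fluoxetine and 10101 and 9155 in control pools, with 0 calls by limma. Of these 4 genes 2 were lower at an unadjusted p under 0.05, against 12.7% of all tested genes, and Wfs1 lay above 0 at log2 0.22 ± 0.16. The pan-neuronal sum was 74315 and 76084 in fluoxetine and 75587 and 77314 in control pools. Their part in the Homer2 values was not tested. Astrocyte markers summed to 42026 and 41135 in fluoxetine and 33894 and 33950 in control pools, a sum to which Slc1a2 contributes most. By limma 2 of 5 were called higher at their brightest probeset, Gfap and Aqp4, against 1.31% of all tested genes. Aldh1l1 overlapped between groups, and Slc1a3 stood at log2 -0.06 ± 0.07. Microglia markers summed to 5785 and 5766 in fluoxetine and 3545 and 3583 in control pools. Of 5 tested, 3 were called higher by limma. All 5 were higher at an unadjusted p under 0.05, against 9.37% of all tested genes.

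Homer3 was close to the detection limit. Its single probeset, 1424859_at, was at 120 and 96.9 in fluoxetine and 120 and 93.6 in control pools, a log2 fold change of 0.03 ± 0.16. Pool 1 was brighter than pool 2 in both groups, the groups overlapped, and the sign turned when fluoxetine pool 1 or control pool 2 was left out. Relative to the spike-in probesets, whose centring moves the median of all tested probesets to log2 -0.41, Homer3 and the Homer1 probesets 1437363_at, 1425710_a_at and 1421768_a_at turned negative. Relative to that median, 1436387_at stood at 2.95 and the Homer2 probesets at -0.49 and -0.46, which centring cannot alter since it subtracts 1 constant from each array.

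The genes whose tested probeset lay nearest to 1436387_at, by Euclidean distance over the 4 arrays between log2 values centred on each probeset's mean, were Nptx2, Gfap, Inhba, Bdnf, Blnk and S100a6. A small distance requires a rise of like size, so these are large rises by construction, and 4 arrays allow little more to be read. Nptx2, a secreted neuronal pentraxin of excitatory synapses, was at a distance of 0.22, with 349 and 397 in fluoxetine and 61.7 and 49.2 in control pools. As at 1436387_at of Homer1, fluoxetine pool 2 was the higher of its group. The control pools of Nptx2 were both under 100, so their order is not read. Gfap, the astrocyte filament gene, was at 0.51 with 3222 and 2606 in fluoxetine and 461 and 385 in control pools. Inhba, the activin beta A subunit gene, was at 0.53 with 309 and 296 in fluoxetine and 38.4 and 43.5 in control pools. For Bdnf, the brain-derived neurotrophic factor, the probeset 1422169_a_at was at a distance of 0.60, with 304 and 329 in fluoxetine and 76.9 and 48.5 in control pools. The brighter Bdnf probeset, 1422168_a_at, was at 2700 and 2741 in fluoxetine and 628 and 593 in control pools (log2 2.16 ± 0.07). Blnk, an adapter gene of B cell receptor signalling, and S100a6, a calcium-binding protein gene, were both at 0.77 after rounding. The control pools of Nptx2, Inhba, Bdnf 1422169_a_at and Blnk were all under 100, so these were at least 3.72-fold, 3.02-fold, 3.16-fold and 2.81-fold higher in the order named, taken against 100. These 4 probesets entered the test only through the fluoxetine pools, and since their control values lie under the minimum, no order of likeness is read from their distances.

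Genes for proteins that the EVH1 domain binds mostly had log2 fold changes below 0, and none passed the test. Of 15 such genes 11 had a probeset named for them alone in the annotation used here, and 8 of these were tested. By limma 0 passed in either direction, against 1.86% of all 9030 tested genes in either direction, 1.31% higher and 0.554% lower. At an unadjusted p under 0.05 there were 0 higher and 4 lower, against 9.37% higher and 12.7% lower of all tested genes. Each gene was taken at its brightest tested probeset. The groups did not overlap at 7 of the 8, 6 lower and 1 higher, against 32.7% lower and 23.6% higher among all tested genes. The median log2 fold change was -0.19, against -0.03 over all tested genes. Grm5, the main group I metabotropic glutamate receptor gene of hippocampal pyramidal neurons, was at 4378 and 4246 in fluoxetine and 5187 and 5188 in control pools (log2 -0.27 ± 0.07, limma adjusted p = 0.116). Its fluoxetine pools were both below its control pools, and its second probeset, 1456119_at, overlapped between groups (log2 -0.14 ± 0.16).

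The ryanodine receptor genes, which encode calcium release channels of the endoplasmic reticulum, were each lower in both fluoxetine pools. Ryr1 was at 68.2 and 70.0 in fluoxetine pools, both under 100, and at 166 and 118 in control pools, at least 1.40-fold lower against 100 (limma adjusted p = 0.0688). It entered the test only through its control pools, so its p and its place in the counts above carry little weight. Ryr3 was at 1261 and 1279 in fluoxetine and 1537 and 1406 in control pools (log2 -0.21 ± 0.08, adjusted p = 0.204). Ryr2 was at 3919 and 4031 in fluoxetine and 4951 and 4087 in control pools (log2 -0.18 ± 0.11, adjusted p = 0.400), where fluoxetine pool 2 and control pool 2 were nearly level. The channel gene Trpc1 stood at log2 -0.19 ± 0.07 and the dynamin gene Dnm3 at -0.12 ± 0.07, with all 4 tested Dnm3 probesets negative. The scaffold gene Shank3, which links Homer to the deeper postsynaptic density, was at 880 and 904 in fluoxetine and 905 and 792 in control pools (log2 0.07 ± 0.09, adjusted p = 0.657), with overlapping groups and a negative sign without control pool 2. Itpr2, an inositol trisphosphate receptor gene, was at log2 0.04 ± 0.06. Shank1, Agap2 and Itpr3 were under 100 in every array.

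**Figure D4:**
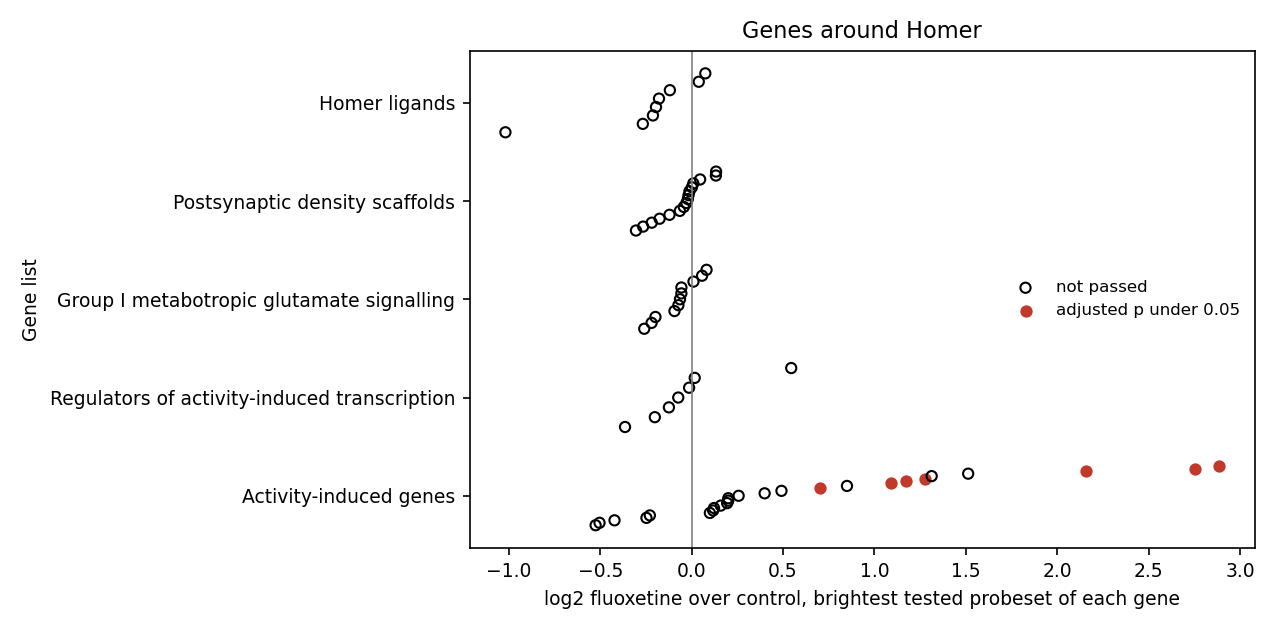
Log2 fold change of fluoxetine over control (horizontal) at the brightest tested probeset of each gene in 5 gene lists (vertical), with filled points for genes past an adjusted p of 0.05 by limma and open points for the rest. All 7 filled points lie in the list of activity-induced genes.

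The wider postsynaptic machinery gave 0 calls by limma. Of 16 tested postsynaptic density scaffold genes 0 were higher and 2 lower at an unadjusted p under 0.05, near the 12.7% lower of all tested genes, and the median was log2 -0.02. The members with the largest differences were Dlgap1, a scaffold that joins PSD-95 to Shank (log2 -0.30 ± 0.08, adjusted p = 0.120), Iqsec2 (-0.27 ± 0.07), Dlg4, which encodes PSD-95 itself (-0.22 ± 0.15), and Dlg1 (-0.18 ± 0.10). Of 11 tested genes of group I metabotropic glutamate signalling 0 were higher and 1 lower at an unadjusted p under 0.05, also near that share, with a median of -0.06. Its largest differences were those of the protein kinase C gene Prkcb (-0.26 ± 0.07, adjusted p = 0.128), of Camk2a (-0.22 ± 0.14) and Camk2b (-0.20 ± 0.08), which encode subunits of calcium/calmodulin-dependent kinase, and of the G protein gene Gna11 (-0.09 ± 0.09).

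Activity-induced genes, the class to which the short Homer1 forms belong, were the only 1 of the 5 gene lists in the plot of log2 fold changes by list to hold calls. Of 31 genes 25 were tested, 7 rose and 0 fell by limma, against 1.31% higher and 0.554% lower of all tested genes, and the median was log2 0.26. The list was written with earlier results of these data known, so these counts are a description and no test. Inhba and Nptx2, whose control pools were under 100, entered the test only through the fluoxetine pools, and where 100 was required in all 4 arrays 5 members rose. Besides Inhba, Nptx2 and Bdnf these were Gadd45b, Rgs2, Egr3 and Fosl2. Rgs2, a regulator of G protein signalling, was at 5420 and 6802 in fluoxetine and 2563 and 2829 in control pools (log2 1.17 ± 0.13, adjusted p = 0.0402), with all 3 of its tested probesets called. Egr3, a zinc finger factor, was at 5914 and 7036 in fluoxetine and 3046 and 3017 in control pools (log2 1.09 ± 0.10, adjusted p = 0.0352). Gadd45b stood at log2 1.28 ± 0.12 and Fosl2, a Fos family factor, at 0.70 ± 0.07. Other members did not pass and lay on both sides of 0.

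Among those, Fos was at 483 and 1039 in fluoxetine and 268 and 230 in control pools (adjusted p = 0.117). Arc, which encodes a postsynaptic protein that acts on glutamate receptor trafficking, was at 365 and 599 in fluoxetine and 289 and 233 in control pools (log2 0.85 ± 0.26, adjusted p = 0.162). In both genes fluoxetine pool 2 was the higher, as it was at 1436387_at of Homer1. The called members Inhba and Gadd45b had the other order, with fluoxetine pool 1 the higher. The prostaglandin synthase gene Ptgs2 was at 611 and 802 in fluoxetine and 334 and 237 in control pools (log2 1.31 ± 0.21, adjusted p = 0.0675). Egr1 was at 2125 and 3100 in fluoxetine and 2238 and 2563 in control pools, with overlapping groups (log2 0.10 ± 0.20). Per1 was lower in both fluoxetine pools, at 140 and 167, than in the control pools, at 243 and 193 (log2 -0.50 ± 0.15, adjusted p = 0.155). At an unadjusted p under 0.05, 12 of the 25 tested members were higher and 1, Per1, was lower. Among all tested genes these shares were 9.37% and 12.7%. With any 1 array left out, 0 members of this list passed.

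Of 7 tested regulators of activity-induced transcription, 0 passed limma in either direction, and 1 was higher and 1 lower at an unadjusted p under 0.05, near the 9.37% higher and 12.7% lower of all tested genes. Crem, a CREB family gene, was at 194 and 179 in fluoxetine and 148 and 111 in control pools (log2 0.54 ± 0.15, adjusted p = 0.145), and the CREB coactivator gene Crtc1 was at 213 and 228 in fluoxetine and 298 and 270 in control pools (log2 -0.36 ± 0.09, adjusted p = 0.110). Srf stood at -0.20 ± 0.10 and Mef2a at -0.12 ± 0.07. Of the activity-induced genes, 24 had a start window in the RefSeq table, and 18 of them, or 75%, held TGACG in at least 1 window, against 23% of all 27025 genes. At least 3 matches, as in Homer1, were held by 6 of the 24, against 1.17% of all genes. A TGACGTCA counts once on each strand here. It was held by 4 of the 24, against 2.03% of all genes, but not by Homer1, so these counts are not fully alike. Of the 6 genes nearest to 1436387_at, 5 had a window and 1 held the letters. This motif was chosen after the Homer1 window was seen.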

How the data were processed

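Hippocampal RNA of 2 fluoxetine and 2 control pools was read on 1 array each. The deposited table holds linear intensity values that the authors made with the GCRMA algorithm in the ArrayAssist software, per the design text in the labels. This algorithm models background from probe sequence, so dim probesets are drawn to a shared low level. No version of either is given in the sources used.

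Values were taken to log2 without a pseudocount. From the 45101 probesets the 64 Affymetrix controls were removed, and the 16938 that reached 100 in at least 2 arrays were tested with limma 3.58.1 in R 4.3.3 (lmFit, eBayes, two-sided, Benjamini-Hochberg over all tested probesets, no covariate), since the smallest p of an exact permutation test on 2 and 2 arrays is 0.333. Errors are limma standard errors and means are geometric. Genes were named only from probesets with 1 symbol (34958), and list genes were taken at their brightest tested probeset (9030 genes). Where all arrays of a group were under 100, a fold is a bound against 100. The number of arrays limits the precision.

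The procedure was tested on simulated data. The members, lists and tests were chosen with earlier results of these data known. Besides all Homer probesets, the rule names every called list member, in each list the 4 members that differ most, every Homer ligand and the 6 nearest genes. Egr1, Arc, Ptgs2, Per1, Ndufab1, Arpp21 and the single marker genes were added after their values were seen. Marker lists covered neurons, dentate, pyramidal and interneuron cells, glia, vessels, choroid plexus and neighbouring regions. Of these, interneuron, oligodendrocyte, choroid plexus, thalamus and cerebellum markers had 0 calls by limma with 0, 0, 0, 1 and 1 at an unadjusted p under 0.05. Of 3 tested endothelial and mural markers 1 was called higher by limma, and all 3 were higher at an unadjusted p under 0.05. Among all tested genes 1.31% were called higher, and 9.37% were higher at that unadjusted p. The control pools of endothelial Flt1 and cerebellar Car8 were all under 100. These genes entered the test only through the fluoxetine pools, so their place in these counts carries little weight. The striatal list had 0 tested markers. Alternatives were other intensity filters, normalizations and low-value rules, leaving out each array, the pool number as a block, other eBayes settings and removing probesets with names ending _x_at or _s_at. A planned motif search in proteins was not made.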

Additional observations from a re-analysis of the deposited data

How the results depend on the processing

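The log2 fold change of Homer1 1436387_at lay between 2.55 and 3.13 under all 15 alternatives run, and its difference from the other Homer1 probesets between 2.70 and 3.14 with any 1 array left out. Whether it passed the test over all probesets did depend on the setting: it passed in 8 of the 15. Of all tested probesets 291 passed (175 higher, 116 lower). None of these calls, of Homer probesets and activity-induced genes included, held with any 1 array left out. Such fits have fewer residual degrees of freedom, and the part of this in the lost calls was not tested. With no filter on dim probesets, which tests 45037, calls fell to 0, 0 of them Homer probesets and 0 activity-induced genes, with 5396 at an unadjusted p under 0.05. With a filter at 50 they were 16, all 16 higher and 0 lower, with 0 Homer probesets and 3 activity-induced genes.

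The pools share numbers between the groups, but no label says that a number marks a shared batch. Deviations of same-numbered pools correlated at 0.14 across probesets, from 2 pairs only. The choroid plexus sum, like Homer3, was higher in pool 1 than in pool 2 in both groups. With the pool number as a replicate block 9 probesets passed, 9 higher and 0 lower, with 0 Homer probesets and 2 activity-induced genes. eBayes with trend and robust settings called 532 (319 higher, 213 lower), among them 1 Homer probeset lower. Centring on the median raised the higher calls to 283 and called 1 Homer ligand lower.

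Centring on the spike-ins shifted the median of all tested probesets to log2 -0.41 and called 10397, of which 10186 lower, with 3 Homer probesets, 6 Homer ligands, 12 scaffold, 8 glutamate signalling and 5 activity-induced genes and 5 transcription regulators among the lower. Under it Homer1 1437363_at, 1425710_a_at and 1421768_a_at stood at -0.25, -0.34 and -0.27, Homer3 at -0.35, Shank3 at -0.30 and Itpr2 at -0.33, each reversed by that common shift. Leaving out 1 array in turn turned the sign of 4 values near 0: Homer3 (-0.15 to 0.20), Homer1 1439662_at (-0.14 to 0.062), Homer1 1425710_a_at (-0.073 to 0.15) and Shank3 (-0.022 to 0.17). Both Homer2 probesets were negative under all 15 alternatives. Causes other than those named were not tested.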
